A study of Mus musculus with 4 samples.

Results

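Interferon-stimulated genes are the genes that cells switch on when they sense interferon, and 45 of them, from the IFIT, OAS, Schlafen, guanylate-binding and related families, were followed through the cell types of the mouse lung. The members were taken by symbol from a fixed list; 43 of the 45 symbols had a row among the 32285 genes of the deposited matrices, and Mx1 and Mx2 were not analysed here. The study profiled single cells of lungs by droplet sequencing of transcript 3′ ends. The 4 groups were LAIR1KO mice carrying B16/F10 melanoma in the lung, LAIR1KO mice with normal lungs, WT mice carrying B16/F10 melanoma and WT mice with normal lungs; LAIR1 is an inhibitory collagen receptor of leukocytes, and B16/F10 is a mouse melanoma line. Each group was 1 library that pooled 3 hashtagged replicates, so the 12 hashtag replicates served as samples, while library and group cannot be told apart. No source used here says whether replicates were separate animals, so p-values measure the spread between these samples only. Strain and age are not given in the sources used here, and neither is the way the knockout was made.

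Type I interferons bind the receptor formed by IFNAR1 and IFNAR2, which activates the kinases JAK1 and TYK2. The signal ends in the nucleus, where transcription factors bind a DNA motif called the interferon-stimulated response element (ISRE) in promoters of the target genes. Type II interferon acts through a separate receptor and on another motif, GAS, and many genes, among them the guanylate-binding proteins, answer to both. In the lung these genes form a first line against respiratory viruses, and their resting level is kept up by low amounts of type I interferon.

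The promoters of 4 members that differed between groups or stood among the most abundant are shown because each holds matches to the ISRE core. Each window runs from 250 bases before to 50 bases after the start that RefSeq gives for the gene on GRCm38.p6, and is written 5′ to 3′ on the strand of the gene. Capitals mark the ISRE core GAAANNGAA on either strand, where matches may overlap each other. The windows are chr4:156200769-156201068 on the minus strand for Isg15, chr19:34640639-34640938 on the plus strand for Ifit1, chr5:120777610-120777909 on the minus strand for Oas3 and chr11:82951852-82952151 on the plus strand for Slfn5.
Isg15: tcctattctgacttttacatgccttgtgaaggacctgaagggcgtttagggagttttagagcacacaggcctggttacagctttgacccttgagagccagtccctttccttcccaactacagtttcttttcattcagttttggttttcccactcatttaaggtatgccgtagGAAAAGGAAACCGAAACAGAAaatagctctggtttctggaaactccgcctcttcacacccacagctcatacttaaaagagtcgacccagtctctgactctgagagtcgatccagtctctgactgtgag
Ifit1: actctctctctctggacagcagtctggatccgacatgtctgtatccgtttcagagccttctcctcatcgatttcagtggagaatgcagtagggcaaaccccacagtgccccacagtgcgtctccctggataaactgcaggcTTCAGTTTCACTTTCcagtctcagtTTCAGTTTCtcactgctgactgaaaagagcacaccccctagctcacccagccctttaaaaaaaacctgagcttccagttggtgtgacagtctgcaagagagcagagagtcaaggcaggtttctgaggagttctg
Oas3: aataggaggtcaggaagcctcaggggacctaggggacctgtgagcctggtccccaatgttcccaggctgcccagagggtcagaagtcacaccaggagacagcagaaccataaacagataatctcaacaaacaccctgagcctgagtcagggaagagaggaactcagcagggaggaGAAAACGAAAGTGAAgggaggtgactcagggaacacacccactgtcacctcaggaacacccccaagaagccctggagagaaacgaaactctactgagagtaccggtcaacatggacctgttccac
Slfn5: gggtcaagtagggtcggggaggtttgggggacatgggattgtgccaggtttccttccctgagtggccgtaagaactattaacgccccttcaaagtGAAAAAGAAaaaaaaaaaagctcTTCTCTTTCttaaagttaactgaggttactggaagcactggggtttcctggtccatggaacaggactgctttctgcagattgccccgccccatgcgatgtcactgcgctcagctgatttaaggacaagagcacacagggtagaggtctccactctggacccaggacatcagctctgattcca
The Isg15 window held 3 overlapping or adjoining matches that began at −78, −72 and −66 from the RefSeq start, and the Ifit1 window held 3 that began at −109, −103 and −84. Oas3 had 2 matches at −75 and −69, and Slfn5 had 2 at −155 and −132. Not every member that differed between groups held a match. Of the others with a promoter here, Oasl2, Slfn4 and Xaf1 held 0. Gbp2, Gbp7, Bst2, Ifit3 and Trim30a held at least 1. Promoters were available for 35 members, and 20 of these (57.1%) held the core in at least 1 promoter. Counted by promoter, 22 of the 43 promoters of these members held it, against 2812 of 32851 promoters of all genes (8.56%). The GAS core TTCNNNGAA was in 8 of the 35 members (22.9%) and in 8 of their 43 promoters, against 8.30% of all promoters. A match is a description of the letters in the window and not a bound site. Of the 43 genes, 11 lie on chromosome 11, 5 on chromosome 5 (the OAS genes) and 4 on chromosome 19 (the IFIT genes), so some members are neighbours. In the GENCODE annotation of GRCm38, Isg15 (ENSMUSG00000035692) lies at chr4:156199424-156200818, Ifit1 (ENSMUSG00000034459) at chr19:34640871-34650009, Slfn5 (ENSMUSG00000054404) at chr11:82951349-82964840, Oasl2 (ENSMUSG00000029561) at chr5:114896936-114912234 and Ifi27l2a (ENSMUSG00000079017) at chr12:103442167-103443680. The GENCODE gene Slfn5 begins upstream of the whole printed window, so its matches are placed from the RefSeq start alone.

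After filters on cells, 15793 of 16350 barcodes were left, and 8468 of them carried exactly 1 hashtag. These were 2400 cells from LAIR1KO tumor-bearing, 2011 from LAIR1KO normal, 2287 from WT tumor-bearing and 1770 from WT normal lungs. A replicate held between 510 and 1050 cells and between 2378671 and 6202834 gene UMIs, a UMI being 1 counted transcript molecule. Barcodes with 2 or more hashtags made up 18.8% of the filtered cells and barcodes with no hashtag call 27.6% (23.035% to 33.01% by group), and both were left out. Any pair of libraries shared 3 to 7 barcodes. Cells were clustered without the interferon genes, and classes were named "-like" from marker genes alone, so a difference from the study may come from these rebuilt names. Within a class, replicates could be far smaller. LAIR1KO normal replicate 1 held 20 interstitial macrophage-like, 15 fibroblast-like and 19 alveolar type 2-like cells. LAIR1KO tumor-bearing replicate 2 held 14 alveolar type 2-like cells. Of 34 clusters, 5 stayed unnamed, and their 543 kept cells entered no class. The largest of them was cluster 12 (Gpihbp1, Tek, Pdgfra, Iigp1). It held 296 cells from LAIR1KO normal, 12 from LAIR1KO tumor-bearing, 14 from WT tumor-bearing and 25 from WT normal lungs. In interstitial macrophage-like cells, Lair1 had 1 UMI in 551 LAIR1KO tumor-bearing cells and 0 in 218 LAIR1KO normal cells, where up to 3 UMIs would be allowed by counting error, against 570 UMIs in 486 WT tumor-bearing cells and 222 in 255 WT normal cells. The knockout labels therefore matched the counts. The Y-linked gene Ddx3y was at 185 to 202 CPM (counts per 1000000 UMIs) in the WT normal replicates, and Xist was at 1120 to 1374 CPM in the replicates of the other groups but at 0.233 to 0.458 CPM in WT normal. WT normal lungs were thus from males and the others from females, and in each comparison against WT normal, sex cannot be told apart from genotype or tumor. LAIR1KO against WT in tumor-bearing lung, and tumor-bearing against normal in LAIR1KO, were matched for sex.

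The resting level of the family differed several-fold between cell classes. Summed over the 43 genes in WT normal lung, neutrophil-like cells had 37.5 ± 2.48 UMIs per 10000 (SD, n = 3 here and below unless given) and endothelial-like cells had 40.5 ± 3.39, which overlap in their spread. Monocyte-like cells followed with 31.2 ± 3.14 and interstitial macrophage-like cells with 23.2 ± 1.75. Both clusters behind the monocyte-like class were rich in barcodes with 2 or more hashtags (44.2% and 80.0%). Fibroblast-like cells had 15.4 ± 3.60 and alveolar type 2-like cells 5.37 ± 1.07 UMIs per 10000. Alveolar macrophage-like cells reached 10 cells a replicate only in tumor-bearing lungs, with 7.07 ± 0.999 UMIs per 10000 in LAIR1KO and 5.07 ± 0.146 in WT.

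The most abundant members behind that level differed between many of the classes, but not between all. Ifi27l2a, Irf1 and Bst2 led in both interstitial macrophage-like and fibroblast-like cells of WT normal lung, in a different order. In WT normal endothelial-like cells the highest were Slfn5, a Schlafen protein that restrains some viruses, at 1045 ± 89.9 CPM, Irf1, a transcription factor of the GAS arm, at 686 CPM, and Bst2, the tetherin that holds budding virions at the membrane, at 422 CPM. In WT normal neutrophil-like cells the highest were Isg15, the ubiquitin-like modifier, at 718 ± 31.9 CPM, Ifi27l2a, a small membrane protein, at 499 ± 51.9 CPM, and Slfn4, a Schlafen of myeloid cells, at 342 CPM. Interstitial macrophage-like cells of WT normal lung had Ifi27l2a at 685, Irf1 at 205 and Bst2 at 184 CPM, and monocyte-like cells had Ifi27l2a at 1025, Ifi204, a DNA sensor of the p200 family, at 227 and Trim30a, a regulator of Toll-like receptor signalling, at 165 CPM. Fibroblast-like cells had Irf1 at 416, Ifi27l2a at 303 and Bst2 at 113 CPM, and alveolar type 2-like cells had Irf1 at 145, Bst2 at 50.6 and the RNA exonuclease Isg20 at 35.2 CPM. Counts are of 3′ ends, so a CPM is a share of molecules and needs no length correction.

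**Figure D1:**
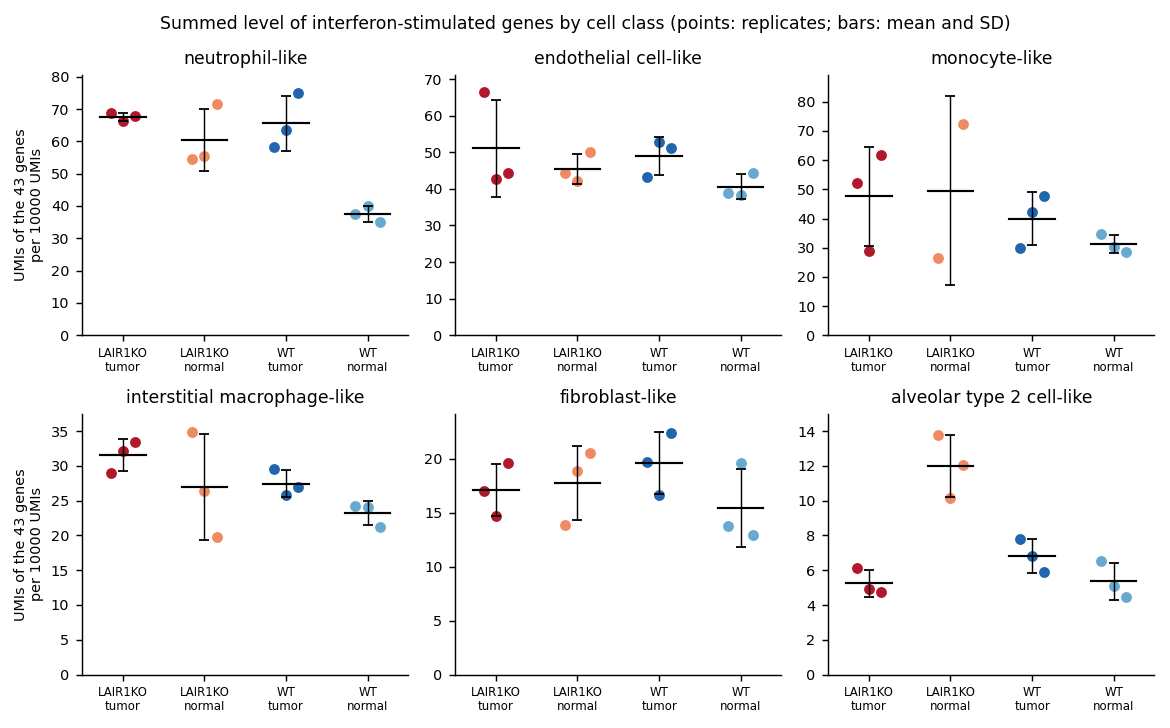
Summed level of the 43 interferon-stimulated genes in each hashtag replicate, in UMIs per 10000 UMIs of the class (vertical axis), for 6 cell classes and 4 groups. Points are replicates, and bars are the mean and SD; monocyte-like LAIR1KO normal has 2 replicates. The WT normal neutrophil-like replicates at 35.0 to 39.9 lie below every other neutrophil-like replicate, the lowest of which is at 54.6.

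In neutrophil-like cells the family stood higher in 3 of the 4 groups than in WT normal. The summed level was 68.6, 66.2 and 68.0 UMIs per 10000 in LAIR1KO tumor-bearing replicates, 54.6, 55.4 and 71.6 in LAIR1KO normal, 58.3, 63.6 and 74.8 in WT tumor-bearing, and 37.6, 39.9 and 35.0 in WT normal. The WT normal replicates were all below the lowest of the others, while those of the other 3 groups overlapped. Median UMIs per cell were 1441, 1597, 1515 and 1955 in the same order of groups, so WT normal cells were the deepest. These neutrophil-like cells came from cluster 0 (led by Sgms2, Il1r2 and Acod1), cluster 7 (S100a8, S100a9, Retnlg) and cluster 10 (Mmp9, Retnlg, Csf3r). Within cluster 0 the summed level was 63.0 in LAIR1KO tumor-bearing, 57.3 in LAIR1KO normal, 64.0 in WT tumor-bearing and 33.5 in WT normal lung, and within cluster 10 it was 92.4, 55.4, 68.9 and 48.2 in the same order.

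Between LAIR1KO and WT in normal lung, 7 of 27 members tested in neutrophil-like cells rose and none fell (edgeR quasi-likelihood test, adjusted p under 0.05), where 0.599% of all 3341 genes tested were called; all 27 tested were above 0, with a median log2 fold change of 0.80, against −0.00 over all genes. Between tumor-bearing and normal WT lung, 9 of 27 rose and none fell, where 2.16% of all genes were called; 26 were above 0, with a median of 0.85 against 0.01 over all genes. The other 16 of the 43 were too low to be tested, and a tested member may have passed the filter on low counts through its higher group. The 2 comparisons share the WT normal replicates and are not independent of each other. By role, the summed CPM of the antiviral effectors was 1572 in LAIR1KO tumor-bearing, 1521 in LAIR1KO normal, 1582 in WT tumor-bearing and 958 in WT normal cells, and that of the Schlafens was 1276, 1172, 1221 and 712 in the same order. In normal lung the count of 7 was 4 without LAIR1KO normal replicate 3 and 11 with another rule for assigning hashtags. Leaving out cluster 7, in which 75.0% of cells carried 2 or more hashtags, gave 4 of 24.

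Among the OAS genes, which make, or resemble makers of, the oligoadenylate messenger that activates RNase L, Oasl2 had 394, 422 and 389 CPM in LAIR1KO tumor-bearing, 373, 359 and 478 in LAIR1KO normal, 451, 472 and 519 in WT tumor-bearing and 213, 232 and 195 in WT normal neutrophil-like cells. Its WT normal replicates lay apart from all others. The log2 fold change was 0.97 ± 0.15 (SE) for LAIR1KO against WT in normal lung (adjusted p = 0.000136) and 1.22 ± 0.15 for tumor-bearing against normal in WT (adjusted p = 3.18e-06). Oas2 had 78.9, 82.4 and 82.2 CPM in LAIR1KO tumor-bearing, 36.4, 74.2 and 79.6 in LAIR1KO normal, 91.8, 68.8 and 126 in WT tumor-bearing and 36.6, 18.2 and 22.1 in WT normal. In normal lung the Oas2 groups overlapped by 1 replicate. Their difference was 1.55 ± 0.32 (adjusted p = 0.00849, and 0.0993 to 0.130 without LAIR1KO normal replicate 2 or 3 or WT normal replicate 2 or 3, 0.0539 with DESeq2 and 0.0512 at a clustering resolution of 0.5), and in WT the tumor difference was 1.96 ± 0.32 (adjusted p = 0.000451). Oas3, whose promoter is printed above and which was named after its values were seen, had 187, 257 and 208 CPM in LAIR1KO tumor-bearing, 246, 177 and 204 in LAIR1KO normal, 200.3, 213 and 229 in WT tumor-bearing and 133, 120 and 78.5 in WT normal. It rose by 0.92 ± 0.19 with the genotype in normal lung (adjusted p = 0.0104) and by 1.04 ± 0.20 with tumor in WT (adjusted p = 0.00239). Oas3 was not among the named results whose calls were followed one by one through the other settings.

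Ifit1, which binds viral RNA that lacks the cap methylation of the host, had 69.0, 58.1 and 64.9 CPM in LAIR1KO tumor-bearing, 91.0, 91.9 and 92.0 in LAIR1KO normal, 62.6, 52.4 and 86.6 in WT tumor-bearing and 43.3, 46.9 and 26.2 in WT normal neutrophil-like cells. LAIR1KO normal was the highest group, and no replicate of any other group reached it. The genotype difference in normal lung was 1.32 ± 0.26 (adjusted p = 0.00594; 0.0594 to 0.134 without LAIR1KO normal replicate 2 or 3 or WT normal replicate 3, 0.0636 with DESeq2, 0.101 with the members kept among the genes used for clustering, and 0.389 without cluster 7), and the tumor difference in WT was 0.86 ± 0.30 and did not pass (adjusted p = 0.131).

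Of the 4 Schlafens, Slfn4 and Slfn5 rose in both comparisons. Slfn4 had 759, 659 and 736 CPM in LAIR1KO tumor-bearing, 419, 657 and 836 in LAIR1KO normal, 718, 685 and 801 in WT tumor-bearing and 339.7, 391 and 296 in WT normal neutrophil-like cells, with log2 fold changes of 1.01 ± 0.17 for LAIR1KO against WT in normal lung (adjusted p = 0.000401) and 1.15 ± 0.17 for tumor in WT (adjusted p = 8.4e-05). Slfn5 had 103, 107 and 104 CPM in LAIR1KO tumor-bearing, 137, 125 and 122 in LAIR1KO normal, 104, 88.5 and 134 in WT tumor-bearing and 36.6, 57.3 and 42.3 in WT normal. Its fold changes were 1.49 ± 0.22 (adjusted p = 0.000133) and 1.28 ± 0.24 (adjusted p = 0.0025) in the same order. For both genes the WT normal replicates were below all others. The genotype calls of Slfn4 and Slfn5 in normal lung were lost when cluster 7 was left out (adjusted p = 0.0866 for Slfn4 and 0.114 for Slfn5).

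Of the members outside these families, Ifi27l2a had 1573, 1202 and 1363 CPM in LAIR1KO tumor-bearing, 1074, 929.6 and 1338 in LAIR1KO normal, 1043, 954 and 1848 in WT tumor-bearing and 479.6, 557 and 459 in WT normal neutrophil-like cells. Every WT normal replicate was below every other. The differences were 1.19 ± 0.18 for LAIR1KO against WT in normal lung (adjusted p = 0.000145) and 1.40 ± 0.18 for tumor in WT (adjusted p = 1.28e-05). Rtp4, a chaperone of membrane receptors that also binds viral RNA, had 282, 310.1 and 286 CPM in LAIR1KO tumor-bearing, 182, 171 and 234 in LAIR1KO normal, 196, 308 and 346 in WT tumor-bearing and 129.9, 148 and 78.5 in WT normal. It rose with tumor in WT by 1.34 ± 0.21 (adjusted p = 0.000278), while its genotype difference of 0.80 ± 0.22 did not pass (adjusted p = 0.0941). Trim30a had 309.5, 267 and 242 CPM in LAIR1KO tumor-bearing, 300.3, 332 and 281 in LAIR1KO normal, 325, 383 and 407 in WT tumor-bearing and 133, 214 and 233 in WT normal. It rose with tumor in WT by 0.96 ± 0.17 (adjusted p = 0.00136). Ifi204, also named after its values were seen, had 103, 82.4 and 86.5 CPM in LAIR1KO tumor-bearing, 109, 86.6 and 99.5 in LAIR1KO normal, 108, 102 and 147 in WT tumor-bearing and 36.6, 65.1 and 42.3 in WT normal, with a tumor difference in WT of 1.33 ± 0.25 (adjusted p = 0.00239). Its call, like those of Oas3, was not followed through the other settings.

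Isg15, the most abundant member in WT normal neutrophil-like cells, did not pass in either comparison. It averaged 1187 ± 81.6 CPM in LAIR1KO tumor-bearing, 873 ± 252 in LAIR1KO normal, 955 ± 135 in WT tumor-bearing and 718 ± 31.9 in WT normal neutrophil-like cells, with differences of 0.33 (adjusted p = 0.406) for the genotype in normal lung and 0.46 (adjusted p = 0.0949) for tumor in WT. Irf7, the transcription factor that amplifies the response, averaged 117, 139, 141 and 81.1 CPM in the same order of groups, Ifit3 averaged 20.8, 30.96, 22.5 and 10.4 CPM, and Bst2 averaged 20.1, 23.7, 10.0 and 11.1 CPM. Reads of Ifit3 and its near-identical neighbour Ifit3b cannot be told apart with certainty.

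**Figure D2:**
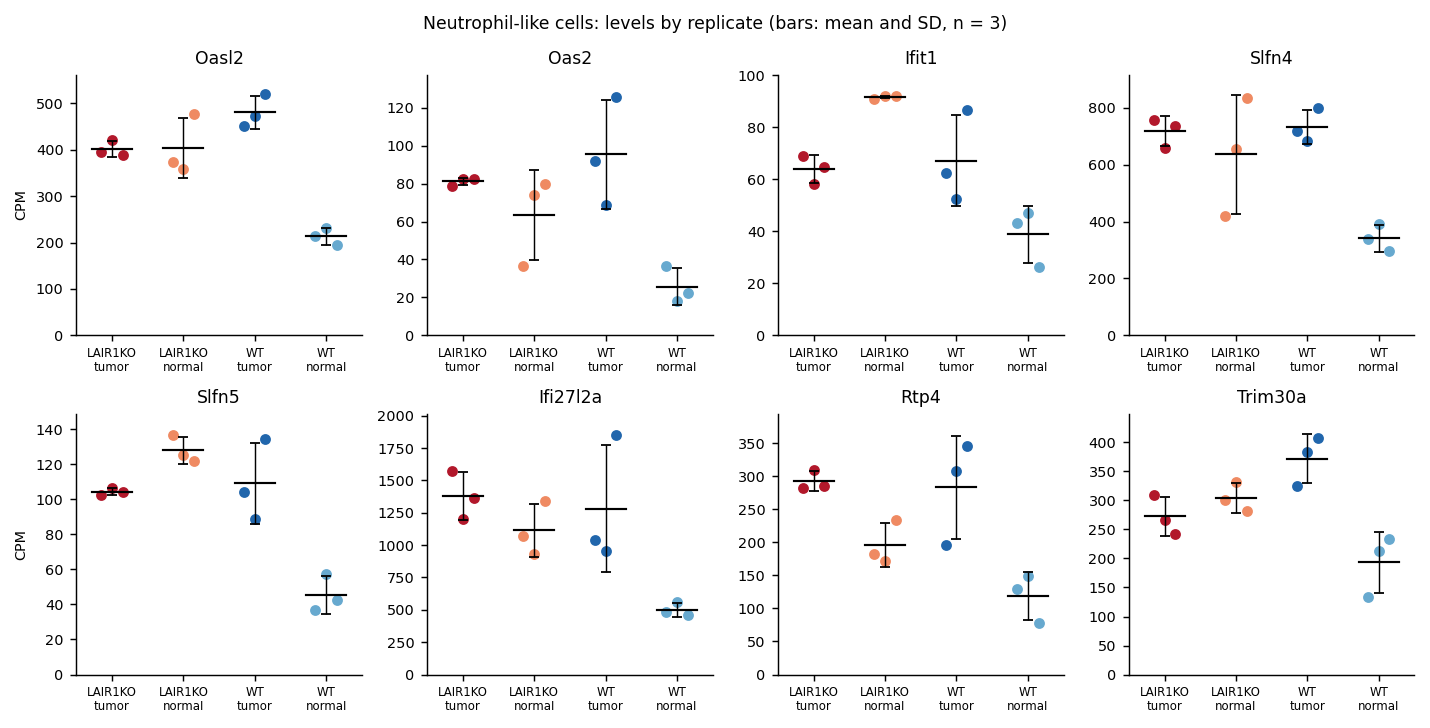
CPM of 8 interferon-stimulated genes in neutrophil-like cells, 1 point per hashtag replicate with mean and SD, for the 4 groups. Every gene has its WT normal points low; Oas2 in 1 LAIR1KO normal replicate, at 36.4 CPM, falls within the WT normal points, the highest of which is 36.6 CPM.

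In the sex-matched comparisons, none of the 27 members tested in neutrophil-like cells was called. For LAIR1KO against WT in tumor-bearing lung the median log2 fold change was 0.02, 3 members had an unadjusted p under 0.05, and DESeq2 also called 0; 0.359% of all genes were called. For tumor-bearing against normal in LAIR1KO the median was 0.03, with 0.389% of all genes called. The test of the difference between the 2 tumor effects, LAIR1KO minus WT, called 2 members, Oasl2 at −1.20 ± 0.20 (adjusted p = 0.00446) and Slfn5 at −1.50 ± 0.32 (adjusted p = 0.0273), where 0.239% of all genes were called. The tumor difference of Oasl2 was 0.03 on the log2 scale in LAIR1KO and 1.22 in WT. Oasl2 kept this call in every other setting run. The count of 2 was 9 under the other hashtag rule, 5 without LAIR1KO tumor-bearing replicate 1, 4 without LAIR1KO normal replicate 1 or WT tumor-bearing replicate 2, and 1 without LAIR1KO tumor-bearing replicate 2 or 3, LAIR1KO normal replicate 2 or 3, WT tumor-bearing replicate 1 or 3, or WT normal replicate 1. Slfn5 lost the call without WT normal replicate 3 as well (adjusted p = 0.065). It also lost it with no filter on low counts (0.0557), at a clustering resolution of 0.5 (0.141) and without cluster 7 (0.259).

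Marker genes of other cell types were low in neutrophil-like cells, and their part in the result was not tested. Alveolar type 2 markers summed to 3.82 to 5.10 UMIs per 10000 in LAIR1KO normal and 7.63 to 9.03 in WT normal replicates, and endothelial markers to 0.972 to 1.46 and 0.366 to 1.02 in the same order. The melanoma markers were at 0 in both.

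In endothelial-like cells the summed level was 66.4, 42.7 and 44.2 UMIs per 10000 in LAIR1KO tumor-bearing, 44.3, 42.01 and 50.1 in LAIR1KO normal, 43.2, 52.7 and 51.2 in WT tumor-bearing and 38.9, 38.2 and 44.4 in WT normal replicates. All 4 groups overlapped in the sum. Of 28 members tested, 3 rose and none fell for LAIR1KO against WT in normal lung, where 0.694% of all genes were called, and 1 rose for tumor in WT, where 0.118% were called. The cells came from cluster 2 (led by Kit and Plvap), cluster 11 (Apln, Car4, Kdr, Ednrb) and cluster 25 (Slc6a2, Vwf, Selp). In these, 34.0%, 39.0% and 17.6% of cells carried 2 or more hashtags. All lay under the limit of 40% for clusters rich in hashtag doublets, so leaving such clusters out removed no endothelial-like cells. The count of 3 was 1 without WT normal replicate 1 and 1 under the other hashtag rule.

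Ifit1 gave the clearest separation. It had 51.6, 69.4 and 56.4 CPM in LAIR1KO tumor-bearing, 81.5, 148 and 137 in LAIR1KO normal, 81.3, 106 and 140.2 in WT tumor-bearing and 26.2, 19.98 and 25.7 in WT normal endothelial-like cells. WT normal was lowest and LAIR1KO tumor-bearing next, and neither overlapped any other group. The genotype difference in normal lung was 2.22 ± 0.31 (4.66-fold, adjusted p = 0.000531), the tumor difference in WT was 2.09 ± 0.34 (adjusted p = 0.00429), and the tumor difference in LAIR1KO was −0.93 ± 0.27 (adjusted p = 0.0943). The difference between the tumor effects, LAIR1KO minus WT, was −3.02 ± 0.43 (adjusted p = 0.00162), where 0.0443% of all genes were called. The calls were lost under the other hashtag rule, with an adjusted p of 0.0827 for the genotype in normal lung, 0.825 for tumor in WT and 0.625 for the difference between the tumor effects. The tumor call in WT was also lost without WT tumor-bearing replicate 2.

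Ifit3, a partner of Ifit1, had 32.2, 13.5 and 11.3 CPM in LAIR1KO tumor-bearing, 28.7, 25.98 and 33.4 in LAIR1KO normal, 29.04, 22.8 and 19.3 in WT tumor-bearing and 2.19, 7.99 and 9.36 in WT normal endothelial-like cells. It rose by 2.17 ± 0.48 for LAIR1KO against WT in normal lung (adjusted p = 0.0281), a call lost in 11 of 21 other settings, among them each LAIR1KO normal or WT normal replicate left out and WT tumor-bearing replicate 2 left out (adjusted p of 0.0511 to 0.343). Ifi27l2a had 45.1, 48.2 and 93.0 CPM in LAIR1KO tumor-bearing, 62.7, 129.9 and 100.3 in LAIR1KO normal, 58.1, 39.1 and 72.5 in WT tumor-bearing and 10.9, 15.98 and 30.4 in WT normal. It rose by 2.24 ± 0.40 with the genotype in normal lung (adjusted p = 0.0042; 0.107 without WT normal replicate 1). Again the WT normal replicates were below all others for both genes. Slfn5, the most abundant member, averaged 1309 ± 234 CPM in LAIR1KO tumor-bearing, 958 ± 169 in LAIR1KO normal, 1126 ± 120.3 in WT tumor-bearing and 1045 ± 89.9 in WT normal. It was not called in any comparison. Bst2 averaged 445, 439.7, 547 and 422 CPM, Isg15 averaged 117, 142, 136 and 90.8 CPM, and Irf7 averaged 25.2, 24.7, 29.3 and 34.5 CPM in the same order, none of them called.

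Other cell types' transcripts were more abundant in LAIR1KO normal endothelial-like cells. Fibroblast markers summed to 13.96 to 34.1 UMIs per 10000 in LAIR1KO normal and 6.88 to 11.9 in WT normal replicates, neutrophil markers to 2.37 to 5.84 and 1.64 to 1.87, and classical monocyte markers to 1.47 to 3.51 and 0.459 to 1.16 in the same order. Their part in the result was not tested. In the sex-matched comparisons 0 of 28 members were called, with medians of −0.10 for LAIR1KO against WT in tumor-bearing lung (0.0% of all genes called, 2 members at an unadjusted p under 0.05, 0 by DESeq2) and −0.00 for tumor in LAIR1KO (1.59% called).

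Alveolar type 2-like cells, led by Sftpc, Sftpb and Lamp3, had the lowest level of these 6 classes, and here LAIR1KO normal lung stood apart, with 12.0 ± 1.81 UMIs per 10000 against 5.25 ± 0.774 in LAIR1KO tumor-bearing, 6.83 ± 0.971 in WT tumor-bearing and 5.37 ± 1.07 in WT normal lung. For LAIR1KO against WT in normal lung 6 of 21 members rose and none fell, where 9.1% of all 7988 genes tested were called, and for tumor in LAIR1KO 4 fell and none rose, where 6.31% of all genes were called. The alveolar type 2-like cells of LAIR1KO normal lung came from cluster 19 more often than those of the other groups. Cluster 19, in which 44.7% of cells carried 2 or more hashtags and the median cell had 16541 UMIs, held 51 of 98 of these cells, against 12 of 121 in LAIR1KO tumor-bearing, 21 of 226 in WT tumor-bearing and 21 of 192 in WT normal lung. Without such clusters 0 of 15 members were called in normal lung, with a median log2 fold change of 0.25, and 0 in LAIR1KO between tumor-bearing and normal. Slfn5, Gbp2, Xaf1 and Gbp7, which are among the 6, had no value in that setting. The 6 became 3 without WT normal replicate 2 or 3. The 4 became 7 without cells marked by Scrublet, 2 without LAIR1KO normal replicate 3 and 1 without LAIR1KO tumor-bearing replicate 3.

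Within cluster 1, the other alveolar type 2-like cluster, the members summed to 4.24 UMIs per 10000 in LAIR1KO tumor-bearing, 6.02 in LAIR1KO normal, 5.80 in WT tumor-bearing and 3.86 in WT normal lung, and within cluster 19 to 9.78, 15.4, 12.4 and 14.1 in the same order. Alveolar type 2 markers summed to 1246 to 1302 UMIs per 10000 in LAIR1KO normal and 1712 to 1836 in WT normal replicates, fibroblast markers to 10.9 to 29.96 and 1.07 to 7.45, and endothelial markers to 10.1 to 17.8 and 3.46 to 4.98 in the same order. The part of these transcripts in the result was not tested beyond leaving out the cluster.

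Among the members called there, Slfn5 had 10.8, 7.20 and 13.004 CPM in LAIR1KO tumor-bearing, 158, 118 and 169 in LAIR1KO normal, 34.2, 28.98 and 6.02 in WT tumor-bearing and 38.1, 23.1 and 35.0 in WT normal alveolar type 2-like cells. LAIR1KO normal lay above every other replicate. The difference was 2.13 ± 0.29 for LAIR1KO against WT in normal lung (adjusted p = 0.00033, and 0.134 under the other hashtag rule) and −3.57 ± 0.44 for tumor in LAIR1KO (adjusted p = 0.000159). Gbp2, an interferon-induced GTPase that attacks pathogen vacuoles, had 7.23, 7.20 and 10.1 CPM in LAIR1KO tumor-bearing, 56.3, 24.9 and 39.4 in LAIR1KO normal, 2.44, 14.5 and 7.22 in WT tumor-bearing and 5.65, 3.15 and 4.25 in WT normal. Its differences were 3.03 ± 0.47 (adjusted p = 0.000735) and −2.00 ± 0.51 (adjusted p = 0.0261) in the same comparisons. Again LAIR1KO normal was above all others. Xaf1, a binder of apoptosis inhibitors, had 0, 0 and 7.22 CPM in LAIR1KO tumor-bearing, 48.8, 20.7 and 33.1 in LAIR1KO normal, 7.33, 12.1 and 2.41 in WT tumor-bearing and 7.06, 3.15 and 6.37 in WT normal. Its differences were 2.46 ± 0.55 (adjusted p = 0.00806) and −2.77 ± 0.71 (adjusted p = 0.0257). The tumor calls of Gbp2 and Xaf1 in LAIR1KO were lost without LAIR1KO normal replicate 1 or 3 or any LAIR1KO tumor-bearing replicate, with an adjusted p of 0.0568 to 0.143. That of Gbp2 was also lost with DESeq2 (0.0592) and that of Xaf1 under the other hashtag rule (0.105).

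The GTPase Gbp7 had 3.61, 0 and 7.22 CPM in LAIR1KO tumor-bearing, 56.3, 26.9 and 26.8 in LAIR1KO normal, 14.7, 7.24 and 9.63 in WT tumor-bearing and 15.5, 8.39 and 7.43 in WT normal alveolar type 2-like cells. It was higher in LAIR1KO normal than in any other replicate, by 1.64 ± 0.42 against WT normal (adjusted p = 0.0209; 0.0801 to 0.108 without LAIR1KO normal replicate 1 or WT normal replicate 2 or 3, and 0.171 under the other hashtag rule), and fell by 2.55 ± 0.59 with tumor in LAIR1KO (adjusted p = 0.0138; 0.0714 without LAIR1KO tumor-bearing replicate 3). Bst2 had 83.1, 36.0 and 43.3 CPM in LAIR1KO tumor-bearing, 180.2, 84.9 and 104 in LAIR1KO normal, 24.4, 85.7 and 49.4 in WT tumor-bearing and 53.6, 54.5 and 43.5 in WT normal. It rose by 1.12 ± 0.33 with the genotype in normal lung (adjusted p = 0.0388; 0.0808 to 0.149 without LAIR1KO normal replicate 1 or 3 or any WT normal replicate, 0.144 under the other hashtag rule and 0.724 without the clusters rich in hashtag doublets). Ifi27l2a had 79.5, 79.2 and 40.5 CPM in LAIR1KO tumor-bearing, 113, 176 and 53.6 in LAIR1KO normal, 97.7, 35.0 and 128 in WT tumor-bearing and 43.8, 30.4 and 13.8 in WT normal. It rose by 1.87 ± 0.50 (adjusted p = 0.0248; 0.0657 to 0.212 without LAIR1KO normal replicate 2 or WT normal replicate 2 or 3, 0.0532 with DESeq2, 0.0607 under the other hashtag rule and 0.970 without the clusters rich in hashtag doublets). Rtp4 was not called between groups but in the difference between the tumor effects, as was Slfn5, where 2.28% of all genes were called: −3.40 ± 0.82 for Rtp4 (adjusted p = 0.037) and −2.94 ± 0.63 for Slfn5 (adjusted p = 0.0216). Rtp4 had 3.61, 0 and 2.89 CPM in LAIR1KO tumor-bearing, 18.8, 12.4 and 15.8 in LAIR1KO normal, 21.98, 14.5 and 9.63 in WT tumor-bearing and 7.06, 7.34 and 5.31 in WT normal. Its call was lost when any replicate but LAIR1KO tumor-bearing 1 or WT tumor-bearing 3 was left out (adjusted p of 0.0568 to 0.1598), and that of Slfn5 without LAIR1KO tumor-bearing replicate 3 or WT tumor-bearing replicate 1 or 2 (0.0612 to 0.108). Under the other hashtag rule neither passed (0.582 for Rtp4 and 0.706 for Slfn5), nor did Rtp4 with DESeq2 (0.0962) or Slfn5 with cells lacking a hashtag call added back (0.0565).

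**Figure D3:**
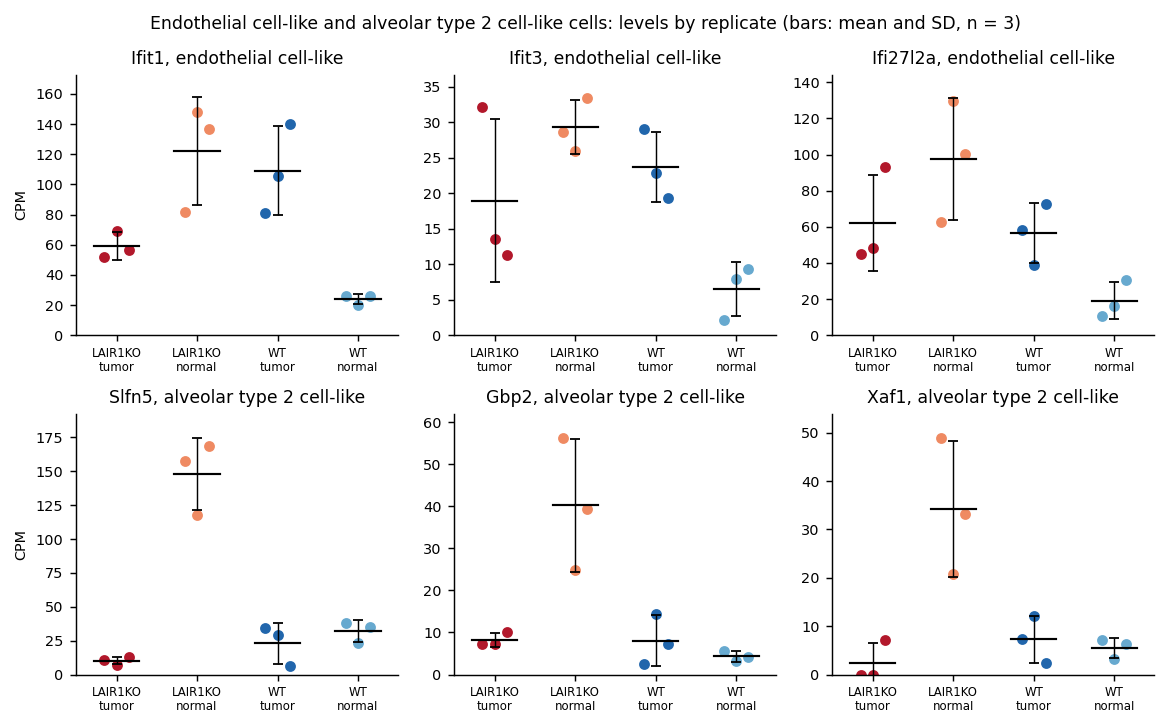
CPM of Ifit1, Ifit3 and Ifi27l2a in endothelial-like cells and of Slfn5, Gbp2 and Xaf1 in alveolar type 2-like cells, 1 point per hashtag replicate with mean and SD, for the 4 groups. The endothelial-like panels have WT normal lowest, with Ifit1 at 19.98 to 26.2 CPM there, and the alveolar type 2-like panels have LAIR1KO normal highest, with Slfn5 at 118 to 169 CPM there.

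In fibroblast-like cells, 1 of 26 members was called, for tumor in WT, where 0.233% of all genes were called. Ifi27l2a had 553, 534 and 809 CPM in LAIR1KO tumor-bearing, 444, 894 and 666 in LAIR1KO normal, 938, 509.7 and 1149.9 in WT tumor-bearing and 322, 304 and 282 in WT normal fibroblast-like cells. The WT normal replicates were below all others, with a tumor difference in WT of 1.48 ± 0.25 (adjusted p = 0.0118) and a genotype difference in normal lung of 1.19 that did not pass (adjusted p = 0.0875). The tumor call was lost when any WT normal replicate or WT tumor-bearing replicate 3 was left out (adjusted p of 0.0795 to 0.117). Over the 26 members the median log2 fold change for tumor in WT was 0.01. None was called for LAIR1KO against WT in normal lung (0.172% of all genes called), for tumor in LAIR1KO (0.0245%) or for the difference between the tumor effects (0.0368%).

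Interstitial macrophage-like cells carry Lair1 at the level given above, and none of their 32 tested members was called in any comparison. The summed level was 31.5 ± 2.30 UMIs per 10000 in LAIR1KO tumor-bearing, 26.995 ± 7.59 in LAIR1KO normal, 27.4 ± 1.93 in WT tumor-bearing and 23.2 ± 1.75 in WT normal lung. For LAIR1KO against WT in tumor-bearing lung, the sex-matched genotype comparison, 25 of 32 members were above 0 with a median log2 fold change of 0.26, and 10 had an unadjusted p under 0.05, but 0 passed in edgeR or DESeq2, where 0.122% of all genes were called. In normal lung the median was 0.16, with 5 at an unadjusted p under 0.05 and 1.4% of all genes called. For tumor in LAIR1KO it was 0.29, with 27 of 32 above 0 and 0.0136% of all genes called, and for tumor in WT 0.10, with 1.03% called. The difference between the tumor effects called 0 members and 1.45% of all genes. The level rested on the cluster too: for cluster 6 (Retnla, Cd209f, Folr2) it was 36.3 in LAIR1KO tumor-bearing, 32.9 in LAIR1KO normal, 35.0 in WT tumor-bearing and 25.9 in WT normal lung, and for cluster 8 (Cxcl13, Cx3cr1, C1qa) 25.5, 18.7, 21.9 and 18.01 in the same order.

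Phf11d, a member of the plant homeodomain finger family, had the lowest p among them for LAIR1KO against WT in tumor-bearing lung. It had 21.8, 28.8 and 25.1 CPM in LAIR1KO tumor-bearing, 12.3, 21.8 and 11.6 in LAIR1KO normal, 6.52, 16.7 and 12.7 in WT tumor-bearing and 5.55, 7.79 and 11.5 in WT normal interstitial macrophage-like cells. The tumor-bearing groups did not overlap, at 1.02 ± 0.32, but the difference did not pass (adjusted p = 0.344). Isg15 had 166, 160.3 and 139 CPM in LAIR1KO tumor-bearing, 265, 94.6 and 127 in LAIR1KO normal, 189, 137 and 126 in WT tumor-bearing and 106, 59.8 and 48.0 in WT normal, so only the tumor comparison in WT separated its groups by all replicates (0.96 ± 0.27, adjusted p = 0.0984). Bst2 had 258, 294 and 293 CPM in LAIR1KO tumor-bearing, 247, 231 and 169.9 in LAIR1KO normal, 271, 246 and 203 in WT tumor-bearing and 169.9, 200.07 and 183 in WT normal. Ifit3 averaged 11.2, 8.59, 6.74 and 1.28 CPM and Irf7 15.2, 10.1, 13.7 and 5.25 CPM in the same order of groups. In monocyte-like cells (Plac8, Ly6c2 and Ccr2, or Adgre4, Cd300e and Treml4) 0 of 14 tested members were called, with medians of 0.45 in normal and 0.28 in tumor-bearing lung for LAIR1KO against WT; 0.0977% of all genes were called in normal lung, 0.147% for tumor in WT and 0.0489% for the difference between the tumor effects. In dendritic cell-like cells, tested only in tumor-bearing lung for LAIR1KO against WT, 0 members and 0.0615% of all genes were called.

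Over all classes, 40 of the 43 members could be tested in at least 1, and 15 were called in at least 1, in 21 pairs of a member and a class. Ifit3b, which has 77 UMIs in LAIR1KO tumor-bearing, 199 in LAIR1KO normal, 64 in WT tumor-bearing and 55 in WT normal cells, was too low to be tested in any class, as were the ISG15 protease Usp18 and the RNA helicase regulator Dhx58. The pairs called were 16 risen and 0 fallen of 148 for LAIR1KO against WT in normal lung, 11 risen and 0 fallen of 153 for tumor in WT, and 0 risen and 4 fallen of 148 for tumor in LAIR1KO. For LAIR1KO against WT in tumor-bearing lung 0 of 165 were called, in 11 classes. Between classes the share of all genes called ran from 0.0977% to 9.1% for LAIR1KO against WT in normal lung, and 0.0992% to 2.16% for tumor in WT. It ran from 0.0% to 6.31% for tumor in LAIR1KO and 0.0% to 0.359% for LAIR1KO against WT in tumor-bearing lung. A transcript level per class cannot separate fewer expressing cells from less RNA in each cell.

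**Figure D4:**
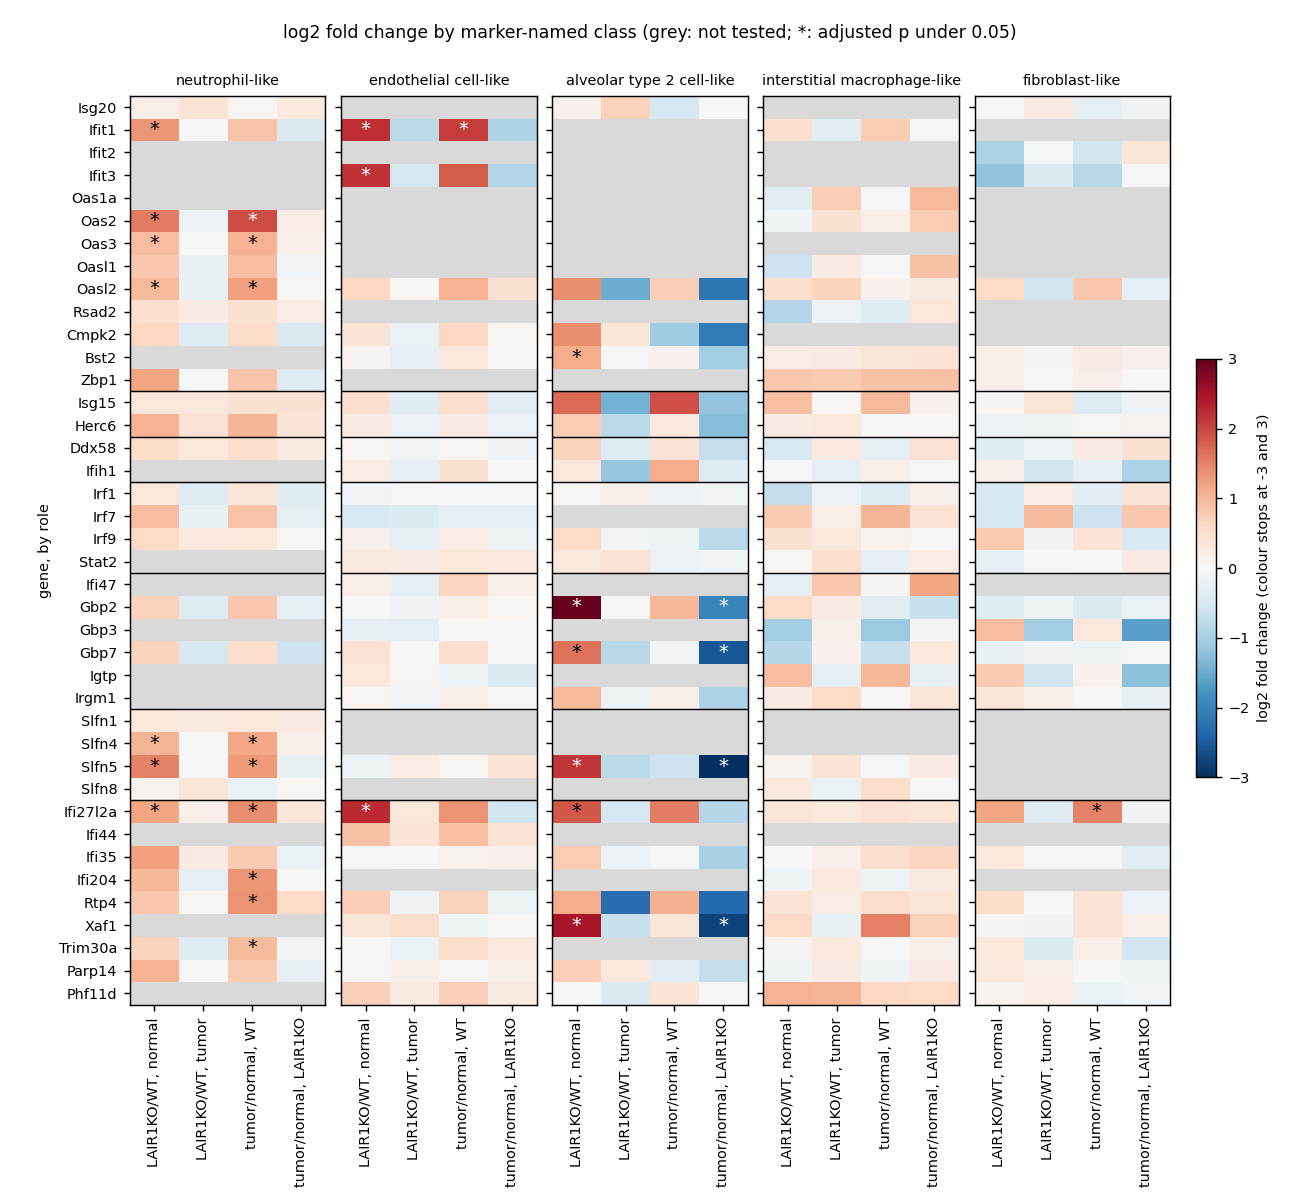
Log2 fold changes of the interferon-stimulated genes (rows, ordered by role) in 5 cell classes and 4 comparisons (columns). Red is higher in the first-named group and blue lower, the colour stops at 3 in either direction, grey was not tested, and an asterisk marks an adjusted p under 0.05; the asterisks lie in the comparisons with WT normal lung and, for alveolar type 2-like cells, in LAIR1KO tumor-bearing against normal lung.

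Expression was uneven among cells of a class. Each cell was thinned to 2000 UMIs, shallower cells were left out, and cells with a UMI of at least 4 of 13 core members were counted (Isg15, Ifit1, Ifit2, Ifit3, Ifit3b, Rsad2, Cmpk2, Oasl1, Usp18, Rtp4, Slfn5, Irf7 and Oasl2). Among neutrophil-like cells these were 17 of 83 (20.5%) in LAIR1KO tumor-bearing, 39 of 144 (27.1%) in LAIR1KO normal, 12 of 62 (19.4%) in WT tumor-bearing and 13 of 250 (5.2%) in WT normal lung. By replicate the share was 22.4 ± 6.23%, 27.3 ± 8.16%, 20.4 ± 11.1% and 5.64 ± 3.93% in the same order, so 1 WT tumor-bearing replicate, at 9.09%, fell below the highest WT normal replicate, at 10.1%. Thinning left out 500, 417, 416 and 311 shallower cells, and without it the shares were 14.8%, 19.3%, 16.3% and 7.84%. The cut is a range and not a type: 59 neutrophil-like cells had 3 of the 13 and 37 had 4. By cluster, 41 of 183 thinned cells (22.4%) were at or above the cut in cluster 7, which was rich in hashtag doublets. The counts were 26 of 241 (10.8%) in cluster 0 and 14 of 115 (12.2%) in cluster 10. The part of cluster 7 in the shares by group was not tested.

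Endothelial-like cells at or above the cut were 18 of 196 (9.18%) in LAIR1KO tumor-bearing, 39 of 428 (9.11%) in LAIR1KO normal, 17 of 189 (8.99%) in WT tumor-bearing and 4 of 162 (2.47%) in WT normal lung, and without thinning the shares were 18.7%, 41.3%, 20.9% and 23.8%. Interstitial macrophage-like cells gave 17 of 540 (3.15%), 4 of 211 (1.896%), 18 of 480 (3.75%) and 4 of 247 (1.62%) in the same order. Over all groups the share was 15.03% in neutrophil-like, 8% in endothelial-like and 2.91% in interstitial macrophage-like cells, while 0 of 206 alveolar macrophage-like cells, which allows up to 1.46%, and 0 of 63 natural killer-like cells, which allows up to 4.76%, had it. Pooled over all groups, members outside the 13 were higher in the neutrophil-like cells above the cut. Ifi27l2a was at 3.98 UMIs per cell against 1.34 in the rest and Slfn4 at 2.89 against 0.760, whereas Irf1 was at 0.185 against 0.168. The pooled values mix groups with unlike levels. Within LAIR1KO tumor-bearing lung Ifi27l2a was at 3.53 against 2.36 and Slfn4 at 2.12 against 1.15. Within LAIR1KO normal lung Ifi27l2a was at 4.21 against 1.67. In endothelial-like cells, pooled over all groups, Irf1 was at 2.99 against 1.12 and Irgm1 at 1.74 against 0.398 UMIs per cell. Ifi27l2a was at 0.0385 against 0.130. In thinned neutrophil-like and endothelial-like cells WT normal had the lowest share under each of 6 other settings. In endothelial-like cells without thinning its share was above those of both tumor-bearing groups. The shares are descriptions with no test, and intervals on counts cover counting error only.

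**Figure D5:**
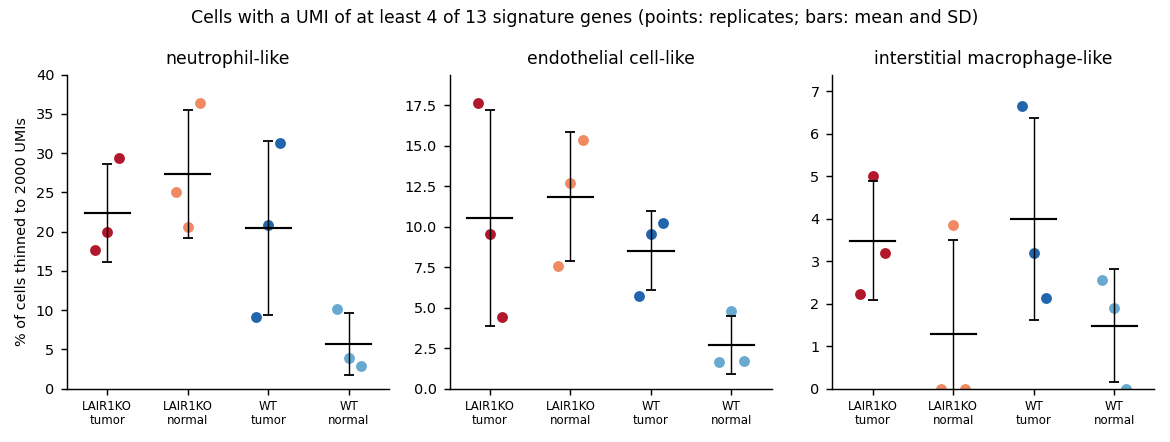
Percent of cells, thinned to 2000 UMIs, with a UMI of at least 4 of 13 interferon-stimulated genes, by hashtag replicate in neutrophil-like, endothelial-like and interstitial macrophage-like cells. Points are replicates and bars are mean and SD; WT normal neutrophil-like replicates are at 2.88 to 10.1% and LAIR1KO normal ones at 20.5 to 36.4%.

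Upstream of the family, Ifnb1, which encodes interferon beta, was the type I interferon with most UMIs. Of its 507 UMIs in kept cells 444 were in interstitial macrophage-like cells, 358 of them in cluster 4 (Ccl4, Tnf, Ms4a7). It had 56.9, 47.3 and 35.8 CPM in LAIR1KO tumor-bearing, 80.2, 29.1 and 15.4 in LAIR1KO normal, 107, 84.5 and 34.7 in WT tumor-bearing and 58.9, 12.99 and 13.4 in WT normal interstitial macrophage-like cells, and the groups overlapped in every comparison; tumor in WT gave 1.07 ± 0.44 (adjusted p = 0.335). Neutrophil-like cells held 1 Ifnb1 UMI and endothelial-like cells 3. The receptor chain Ifnar1 was at 176 CPM in neutrophil-like, 118 in interstitial macrophage-like and 60.7 in endothelial-like cells, and Ifnar2 at 132, 135 and 118 CPM in the same order. Ifng had 37 UMIs in all, 26 of them in natural killer-like cells.

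Of the receptors and kinases of the pathway 7 of 9 were tested in neutrophil-like cells and 0 were called in normal lung for LAIR1KO against WT, where 0.599% of all genes were called. Of a longer list of other interferon-induced genes, 15 were tested in neutrophil-like cells, and 0 were called in that comparison, with a median log2 fold change of 0.40. For tumor in WT, where 2.16% of all genes were called, 2 of the 15 rose and 1 fell: Slfn2 by 0.50 (adjusted p = 0.0298), Sp100 by 0.55 (adjusted p = 0.0475), and the immunoproteasome subunit Psmb8 fell by 1.36 (adjusted p = 0.00278). Alveolar type 2-like cells differed for LAIR1KO against WT in normal lung, where 9.1% of all genes were called. There 2 of 7 receptors and kinases rose by edgeR, Jak1 by 0.73 (adjusted p = 0.0123) and Ifnar2 by 0.73 (adjusted p = 0.0215). Of the longer list 6 of 24 rose there. For tumor in LAIR1KO, where 6.31% of all genes were called, Ifnar2 fell in these cells (−1.16, adjusted p = 0.00644).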

How the data were processed

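Single-cell libraries of mouse lung were deposited by the authors as raw UMI counts per gene and barcode, with hashtag antibody counts in the same matrices. Per the submitters' processing notes, Cell Ranger 4.0.0, STAR, R 4.0.0, Seurat 3.2.0 and the build mm10 were used, with no role stated. Here, barcodes with at least 300 genes and at most 10% mitochondrial UMIs were kept, and hashtags were called per library with HTODemux (Seurat 5.3.0, positive quantile 0.99). Cells were clustered with scanpy 1.11.5 and leidenalg 0.10.2 (2000 variable genes without interferon genes, 30 components, 15 neighbours, resolution 1). Hashtag doublets were removed; Scrublet marked 339 cells, whose removal was an alternative. UMIs were summed per replicate and class of at least 10 cells, with at least 2 replicates a group, and fitted over all expressed genes with edgeR 4.0.16 (R 4.3.3; TMM, filterByExpr, quasi-likelihood F test, Benjamini-Hochberg), with DESeq2 1.42.0 as an alternative. The procedure was tested on simulated data. The smallest replicate held 2378671 UMIs. Members called in any class and comparison were described, up to 6 per class and comparison, with the 3 most abundant per class and Isg15, Ifit3, Irf7 and Bst2. The members and lists were chosen with earlier results of these data known. Other alternatives were no filter on low counts, only the groups compared, other hashtag rules and clusterings, each replicate left out and, chosen after seeing the data, clusters rich in hashtag doublets left out.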

Additional observations from a re-analysis of the deposited data

Results flagged for a closer look

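The difference between the tumor effects, LAIR1KO minus WT, passed for 5 pairs of a gene and a class. Ifit1 in endothelial-like cells gave −3.019, Oasl2 in neutrophil-like cells −1.196, Slfn5 in neutrophil-like cells −1.5, Slfn5 in alveolar type 2-like cells −2.938 and Rtp4 in alveolar type 2-like cells −3.402 on the log2 scale. In 3 more cases the replicates of 2 groups did not overlap and lay one way in 1 comparison and the opposite way in its counterpart, while the test of the difference itself was not passed by edgeR (adjusted p = 0.120 for Gbp7, 0.106 for Ifit1 and 0.0508 for Trim30a). Gbp7 in alveolar type 2-like cells had a genotype difference of −0.822 in tumor-bearing lung (adjusted p = 0.937 by edgeR) and 1.64 in normal lung. In tumor-bearing lung its closest replicates nearly met, at 7.22 CPM in LAIR1KO and 7.24 CPM in WT. Ifit1 in neutrophil-like cells had a tumor difference of −0.44 in LAIR1KO and 0.859 in WT. Trim30a in neutrophil-like cells had a genotype difference of −0.383 in tumor-bearing lung and 0.67 in normal lung. Each of the 8 rests on WT normal or LAIR1KO normal lung, each of them 1 library, and the WT normal library was male.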

How the results depend on the processing

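No paired analysis was possible because the labels give no replicate numbers and hashtag names are antibody names. For LAIR1KO against WT in normal lung the 16 pairs called became 30 with no filter on low counts, 7 without clusters rich in hashtag doublets and 10 to 17 when 1 replicate was left out (10 without WT normal replicate 3). For tumor in WT the 11 became 7 with DESeq2, which gave no adjusted p for the other 4, 23 with no filter and 10 to 12. For tumor in LAIR1KO the 4 became 14 with no filter, 2 with only the groups compared, 7 without Scrublet doublets, 0 without doublet-rich clusters and 1 to 5 (1 without LAIR1KO tumor-bearing replicate 3). For LAIR1KO against WT in tumor-bearing lung the 0 became 6 with no filter and 0 to 1 (1 without LAIR1KO tumor-bearing replicate 1). The 5 for the difference between tumor effects became 18 with no filter, 9 with the ratio rule for hashtags, 11 with rescued cells, 12 without Scrublet doublets, 2 without doublet-rich clusters and 2 to 9 (2 without LAIR1KO tumor-bearing replicate 3, 9 without its replicate 1, and 3 without its replicate 2, WT normal replicate 1 or WT tumor-bearing replicate 1). The cause of these moves was not tested. Over 33 named results and 670 alternative values, 577 kept their call, 93 lost it and 0 reversed. A setting that gave no value for a gene is not among the 670. In alveolar type 2-like cells, Slfn5, Gbp2, Xaf1 and Gbp7 had no value without the doublet-rich clusters, so that setting does not count against their calls. The calls of Oas3 and Ifi204 in neutrophil-like cells were not among the 33. In neutrophil-like cells Oasl2 and Ifi27l2a kept their calls for the genotype in normal lung and for tumor in WT in every alternative run. Depth limits low members: alveolar type 2-like values near 0 CPM rest on single UMIs.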
